A study of Mus musculus with 29 samples.

Results

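The transcripts described here are Apoe and 7 genes around it on mouse chromosome 7: Apoc1, Tomm40, Bcam, Bcl3, Relb, Clptm1 and Clasrp. They were chosen by name, as the rows with these symbols in the tables of all 29 libraries, and make up 8 of 51456 gene symbols. All 8 were among the 13510 genes that passed a filter on low values (at least 1 in at least 9 libraries). The comparison asked whether genes flanking the knocked-out Apoe differed between ApoE KO and wild-type (WT) aortas, and whether a sclerostin antibody (Scl-Ab) moved any of them.

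RNA was sequenced from the aortic arch of male C57BL/6 mice, labelled as 14 weeks old and kept on chow. The Scl_Ab group (10 libraries) were ApoE KO mice whose subcutaneous pump held angiotensin II (AngII) at 15.27 mg/mL and ran at 0.11 µL/hr, and they were given a weekly dose of 10 mg/kg Scl-Ab over 4 weeks. The Vehicle group (9 libraries) were ApoE KO mice with the same AngII pump and vehicle injections, and the WT group (10 libraries) carried vehicle in the pump and in the injections. Genotype and AngII therefore differ together between either ApoE KO group and WT and cannot be told apart. The labels do not name the knockout allele or the exons it removes, and each gene has 1 value, so exons could not be looked at separately. Since 10 libraries carry the WT label and the protocol counts 9 such mice, n is the number of libraries, and p-values measure the spread between libraries. The tissue was whole arch with its outer fat scraped off, and in such bulk tissue fewer cells of a type and less RNA per cell cannot be told apart.

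Apolipoprotein E coats lipoprotein particles and lets them be taken up by cells through surface receptors, and mice without it have high plasma cholesterol and develop atherosclerosis. It is made mainly by the liver and by macrophages. Apoe lies in a cluster with the apolipoprotein genes Apoc1, Apoc4 and Apoc2, and the cluster is flanked by genes of unrelated function. In human genetics the region is studied as the APOE locus, where neighbouring genes are inherited together. A targeted allele is likewise inherited with the DNA around it.

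On GRCm38 all 8 genes are transcribed from the minus strand. Apoe spans chr7:19696109-19699188. Relative to Apoe, Apoc1 lies 6.63 kb towards lower coordinates, followed by Clptm1 at 64.5 kb, Relb at 89.9 kb and Clasrp at 115 kb, while Tomm40 lies 5.20 kb, Bcam 60.0 kb and Bcl3 112 kb towards higher coordinates (distances between lower-coordinate ends). In this order Tomm40 on one side, and Apoc1 and Clptm1 on the other, sit between Apoe and the nearest members that differed from WT in either comparison.

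The 250 bases before the RefSeq start are printed for 4 of them (RefSeq, GRCm38.p6, minus strand, 5′ to 3′). Bcam, which was lower in ApoE KO libraries, is set beside Bcl3, which was higher. Apoe, the knocked-out gene itself, and Tomm40, the nearest gene on that side, are printed with them. The windows are chr7:19699189-19699438 (Apoe, 1 of 3 starts listed), chr7:19715430-19715679 (Tomm40), chr7:19770533-19770782 (Bcam) and chr7:19822756-19823005 (Bcl3). Capitals mark GGGCGG, the core of the GC box bound by Sp1, and CCAAT, the box bound by NF-Y, on either strand (CCGCCC is GGGCGG read on the other strand).
Apoe: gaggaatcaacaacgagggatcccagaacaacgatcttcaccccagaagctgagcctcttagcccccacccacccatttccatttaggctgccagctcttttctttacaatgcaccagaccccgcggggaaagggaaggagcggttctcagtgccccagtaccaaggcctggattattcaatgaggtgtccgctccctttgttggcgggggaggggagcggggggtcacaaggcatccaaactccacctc
Tomm40: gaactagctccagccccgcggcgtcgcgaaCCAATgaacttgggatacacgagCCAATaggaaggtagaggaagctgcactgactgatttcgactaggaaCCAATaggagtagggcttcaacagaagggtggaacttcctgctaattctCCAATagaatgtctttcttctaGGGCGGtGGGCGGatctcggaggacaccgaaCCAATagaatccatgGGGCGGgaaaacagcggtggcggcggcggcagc
Bcam: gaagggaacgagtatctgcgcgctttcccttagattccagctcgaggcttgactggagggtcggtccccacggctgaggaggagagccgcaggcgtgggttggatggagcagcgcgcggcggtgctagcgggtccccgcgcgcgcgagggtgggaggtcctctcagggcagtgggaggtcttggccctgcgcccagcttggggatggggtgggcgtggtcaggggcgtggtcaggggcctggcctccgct
Bcl3: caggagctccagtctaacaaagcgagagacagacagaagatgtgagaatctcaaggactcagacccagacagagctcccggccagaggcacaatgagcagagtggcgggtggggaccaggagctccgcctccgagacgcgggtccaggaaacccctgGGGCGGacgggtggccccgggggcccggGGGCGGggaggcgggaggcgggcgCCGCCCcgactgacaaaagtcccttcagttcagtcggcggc
The Tomm40 window held 5 CCAAT and 3 GGGCGG matches and the Bcl3 window 3 GGGCGG matches, 1 of them on the other strand. Those of Apoe and Bcam held neither set of letters. Whether such matches bear on the differences from WT was not tested. Of the windows not printed, that of Clasrp, which was lower in Vehicle, held GGGCGG on the other strand (bases -93 to -88 from the start). The window of Clptm1, which differed from WT in neither comparison, held GGGCGG at -153 to -148 and at -16 to -11. Over 32851 windows of the same length in the table, 32.7% held GGGCGG and 33.8% CCAAT. Promoters were found for 6 of the 8 members. No window among these 6 held the NF-kappaB consensus (3.9% of all windows), the CArG box of serum response factor (1.47%) or TATAAA (12.4%), all searched on both strands.

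Values are FPKM-like, scaled by gene length, so levels can be compared between genes. In WT the order of the means was Bcam, Apoe, Apoc1, Clptm1, Tomm40, Clasrp, Relb and Bcl3, with means of 452, 264, 62.8, 20.4, 17.9, 15.7, 8.07 and 1.42. In Vehicle libraries Apoe stood between Relb and Bcl3 instead, at the low end of the 8. Judged from the steps between low values, the lowest member, Bcl3, rested on about 39.98 to 93.3 fragments per WT library. Differences are from limma on log2(value + 1), with folds on that scale and p-values adjusted by the Benjamini-Hochberg method over all 13510 genes. A gene is called where its adjusted p is under 0.05.

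Apoe checks the labels. Its values ran from 4.64 to 12.51 (median 8.33) in Scl_Ab libraries, from 3.32 to 9.23 (median 7.08) in Vehicle libraries, and from 146 to 363 (median 284) in WT libraries. Every ApoE KO library lay below every WT library. The mean was 3.17% of the WT mean in the Scl_Ab group and 2.54% in the Vehicle group. Against WT this was 0.0351-fold in Scl_Ab (95% interval 0.0274 to 0.0448, adjusted p = 2.81e-18) and 0.0292-fold in Vehicle (0.0227 to 0.0376, adjusted p = 1.37e-18), the lowest rank of all 13510 genes in either comparison. The remaining signal was not at the floor of the assay: it corresponded to about 187 to 560 fragments per library in Scl_Ab, 125 to 395 in Vehicle and 5417 to 14761 in WT. Between Scl_Ab and Vehicle no difference in Apoe was called (1.20-fold, 0.932 to 1.54, adjusted p = 0.381). With group means removed, the genes whose log2 values were most like those of Apoe over the 29 libraries were Inmt (r = 0.791), a methyltransferase, BC026585 (0.740) and Cyp27a1 (0.730), the sterol 27-hydroxylase.

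**Figure D1:**
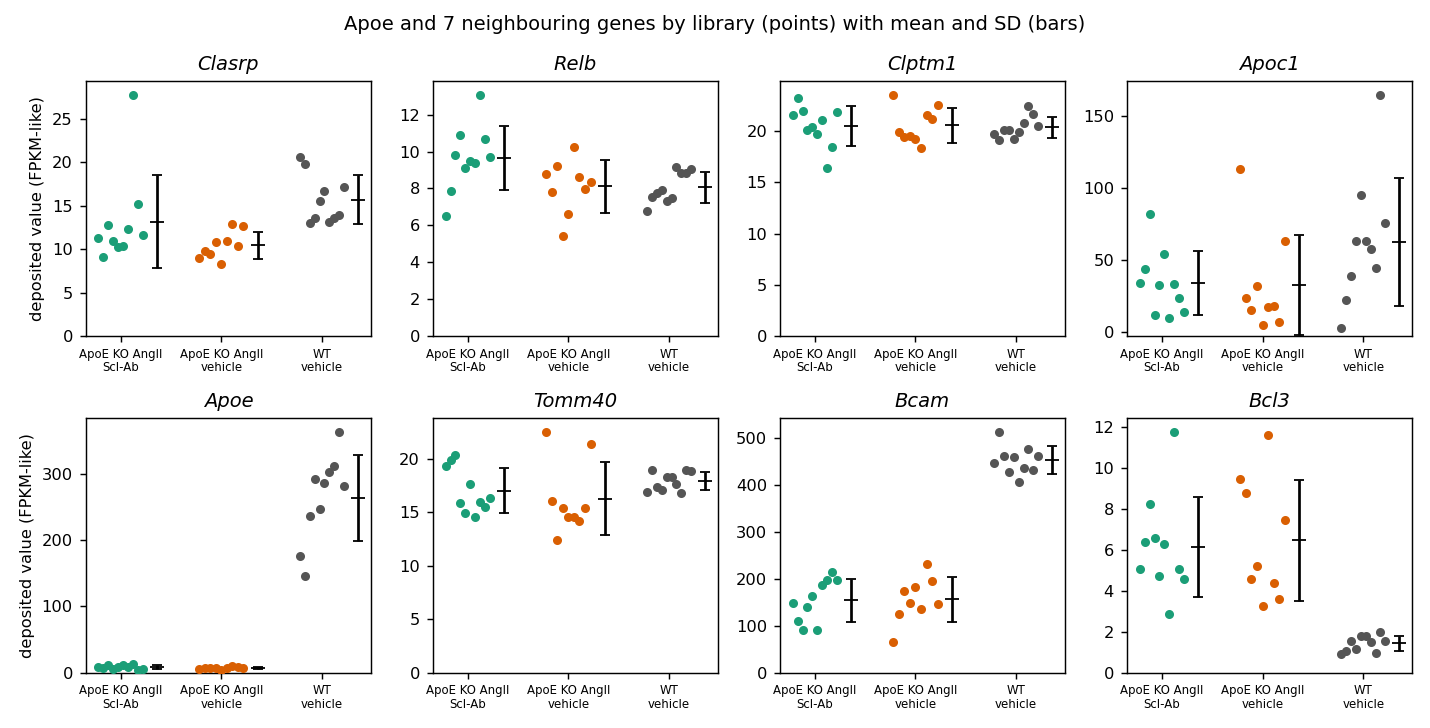
Deposited FPKM-like value (vertical axis, linear) of each of the 8 genes in every library (points), by group, with mean and SD (bars), in chromosome order from Clasrp to Bcl3. Bcam and Apoe of both ApoE KO groups lie below all WT points and Bcl3 above them, while the points of Clptm1 overlap, with means of 20.5, 20.6 and 20.4.

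Against WT, 4 of 8 members were called in Scl_Ab (Apoe and Bcam lower, Bcl3 and Relb higher) and 4 of 8 in Vehicle (Apoe, Bcam and Clasrp lower, Bcl3 higher). Over all tested genes 50.4% were called in Scl_Ab and 53.7% in Vehicle, so the members' share was close to the background. The groups did not overlap for 3 members in Scl_Ab (12.3% of all genes) and for 4 in Vehicle (16.8%). The 2 comparisons share the WT libraries and are given side by side. The members' median log2 difference was -0.18 in Scl_Ab and -0.34 in Vehicle, against -0.06 and -0.04 over all genes. Apoe, the knocked-out gene itself, is included in these counts, shares and medians. Among the neighbours alone the middle difference was that of Tomm40, at -0.08 in Scl_Ab and -0.15 in Vehicle. Bcam and Bcl3 were among the larger differences: Bcam ranked 31 and 24 from the lowest of 13510 differences in Scl_Ab and Vehicle, and Bcl3 255 and 249 from the highest.

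Apoc1, an apolipoprotein that modulates lipoprotein lipase and lecithin-cholesterol acyltransferase, was the most variable member. Its values ran from 10.1 to 81.8 (median 33.3) in Scl_Ab, from 5.09 to 113 (median 18.2) in Vehicle and from 2.98 to 164 (median 60.6) in WT. All 3 groups overlapped widely. Its fold against WT was 0.627 in Scl_Ab (0.294 to 1.34, adjusted p = 0.299) and 0.491 in Vehicle (0.225 to 1.07, adjusted p = 0.117), and neither was called. Without Vehicle replicate 1, the highest of that group, or without WT replicate 20, the lowest of WT, the Vehicle difference was called (adjusted p = 0.0407 and 0.0126).

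Within each group Apoc1 followed the adipocyte markers (14 genes, taken as their mean log2 value). Pearson's r was 0.926 in Scl_Ab (n = 10, permutation p = 0.00021), 0.961 in Vehicle (n = 9, permutation p = 1e-05) and 0.988 in WT (n = 10, permutation p = 1e-05), where 1e-05 is the smallest that 100000 permutations can give. Spearman's rho was 0.915, 0.950 and 0.952 in Scl_Ab, Vehicle and WT (permutation p = 0.00052, 0.00031 and 0.00013). Adjusted over the 72 relations computed, of which 13 had an adjusted p under 0.05, the p-values of r were 0.00504, 0.000360 and 0.000360 in that order, and without the 2 libraries farthest from the median r was 0.881, 0.889 and 0.959. For Apoe, r with this index was 0.616, -0.0113 and 0.838 in Scl_Ab, Vehicle and WT (adjusted permutation p = 0.168, 0.979 and 0.0367). The rho of Apoe in WT was 0.624 (adjusted permutation p = 0.193). The genes most like Apoc1 over the 29 libraries, with group means removed, were Adipoq (r = 0.964), which encodes adiponectin, Cfd (0.947), which encodes adipsin, and Car3 (0.946), a carbonic anhydrase abundant in fat. The summed adipocyte markers ranged from 983 to 9247 in Scl_Ab, from 716 to 11786 in Vehicle and from 486 to 3311 in WT, with no marker under 1 in all libraries of a group.

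With the adipocyte index as a covariate, a fit added after the data were seen, Apoc1 was 0.312-fold against WT in Scl_Ab (0.235 to 0.416, adjusted p = 8.99e-08) and 0.312-fold in Vehicle (0.235 to 0.414, adjusted p = 6.30e-08). Scl_Ab and Vehicle then differed by 1.001-fold (0.758 to 1.32, adjusted p = 0.998). Leaving out each library in turn in that fit kept the fold between 0.286 and 0.331 in Scl_Ab and between 0.288 and 0.329 in Vehicle, with adjusted p of at most 5.11e-07 and 4.09e-07. At a given level of adipocyte markers, the fitted ApoE KO values thus lay below those of WT, as the plot of Apoc1 against the adipocyte index shows. With an index of 15 contractile smooth muscle markers as the covariate instead, also added after the data were seen, Apoc1 was also called, at 0.148-fold in Scl_Ab (0.0507 to 0.433, adjusted p = 0.00789) and 0.123-fold in Vehicle (0.0430 to 0.354, adjusted p = 0.00270). The contractile index was at most 8.51 in Scl_Ab and 8.58 in Vehicle, and at least 8.89 in WT. Each fit with this covariate therefore extends each group's line beyond its own libraries, and its folds are extrapolated. Within groups r of Apoc1 with the contractile index was -0.692, -0.825 and -0.153 in Scl_Ab, Vehicle and WT (adjusted permutation p = 0.0985, 0.0367 and 0.866). Without the 2 libraries farthest from the median r was -0.352, -0.402 and 0.0197.

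**Figure D2:**
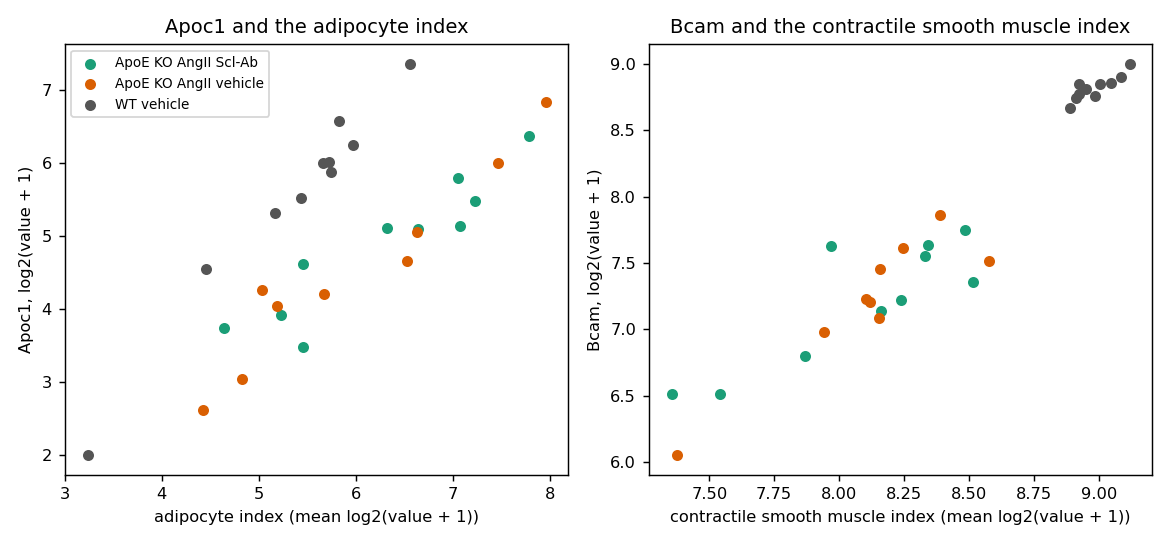
Left, log2(value + 1) of Apoc1 (vertical axis) against the adipocyte index (horizontal axis, mean log2(value + 1) of 14 markers); right, the same for Bcam and the contractile smooth muscle index (15 markers). Points are libraries. On the left, where the index ranges overlap, the ApoE KO points lie below the WT points (r = 0.926, 0.961 and 0.988 in Scl_Ab, Vehicle and WT), and on the right the ApoE KO and WT points do not overlap on either axis.

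The other apolipoprotein genes of the cluster, Apoc2, the activator of lipoprotein lipase, and Apoc4, were below the filter. Apoc2 ran from 0.331 to 2.58 in Scl_Ab and from 0.0867 to 1.92 in Vehicle, and it was listed at 0 in 7 of 10 WT libraries with a highest value of 0.434. Apoc4 ran from 0.205 to 0.942 in Scl_Ab and from 0.105 to 3.61 in Vehicle, and it was listed at 0 in 9 of 10 WT libraries. In the fit without a filter both were called higher than WT, Apoc2 with adjusted p = 0.000140 in Scl_Ab and 0.00389 in Vehicle, and Apoc4 with 0.00634 and 0.00142. Of the 31865 genes in that fit, 24.2% were called in Scl_Ab and 25.4% in Vehicle. The direction of these low values is opposite to that of Apoe.

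A list of other apolipoprotein genes also held Apobec1, which is no apolipoprotein but encodes the enzyme that edits Apob mRNA. Of its 6 tested genes, 3 were higher in Scl_Ab and 4 in Vehicle against WT and none lower, Apobec1 included. The apolipoprotein L genes Apol6 and Apol9b were higher by 1.31-fold and 1.35-fold in Scl_Ab and by 1.35-fold and 1.40-fold in Vehicle, and Apobec1 was 2.36-fold in Scl_Ab and 2.79-fold in Vehicle (adjusted p = 1.33e-09 and 6.67e-11). Clu and Apod were not called. Of 12 tested receptors and partners of apolipoprotein E, 8 were higher and 3 lower in each comparison (all genes: 19.8% higher and 30.5% lower in Scl_Ab, 22.7% and 31% in Vehicle). Abcg1 and Abca1, the cholesterol exporters that load lipid onto apolipoprotein particles, were 5.30-fold and 2.80-fold in Scl_Ab and 6.27-fold and 3.42-fold in Vehicle, and Vldlr was lower in both. Trem2, a lipid receptor of macrophages, was 10.3-fold in Scl_Ab and 12.6-fold in Vehicle. Macrophage markers moved with these genes: 19 of 20 were higher in each comparison (Mpeg1 17.2-fold and 23.7-fold), and their summed level was 1016 to 2455 in Scl_Ab, 1305 to 3828 in Vehicle and 137 to 457 in WT. The part of macrophage number in these differences was not tested.

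Tomm40, which forms the channel of the mitochondrial outer membrane through which most mitochondrial proteins enter, was not called in either comparison, although it lies next to Apoe. Its values ran from 14.5 to 20.4 (median 16.1) in Scl_Ab, from 12.4 to 22.5 (median 15.4) in Vehicle and from 16.8 to 18.97 (median 17.96) in WT. The WT range lay inside both ApoE KO ranges. The fold against WT was 0.949 in Scl_Ab (0.847 to 1.062, adjusted p = 0.437) and 0.901 in Vehicle (0.802 to 1.01, adjusted p = 0.122). The Vehicle value was called lower without Vehicle replicate 1 (adjusted p = 0.0193) or replicate 9 (0.0298), its 2 highest libraries. It was also called lower with the adipocyte index as a covariate, at 0.879-fold in Scl_Ab and 0.857-fold in Vehicle (adjusted p = 0.0140 and 0.00306), and with the contractile index, at 0.755-fold and 0.724-fold (adjusted p = 0.00694 and 0.00154). The folds from the contractile covariate are extrapolated, as for Apoc1. In Vehicle libraries Tomm40 correlated with the adipocyte index (r = 0.844, permutation p = 0.00369, adjusted 0.0350, and rho = 0.700, permutation p = 0.0433). Without the 2 libraries farthest from the median of the adipocyte index r was 0.441, so the relation in Vehicle rests on those. In Scl_Ab r was 0.758 (adjusted permutation p = 0.0727), and 0.721 without its 2 farthest libraries. In WT r was 0.408 (adjusted permutation p = 0.452), and 0.753 without its 2 farthest. Of 16 genes of mitochondrial import, 2 were higher and 6 lower in Scl_Ab, and 3 were higher and 5 lower in Vehicle, a called share close to the 50.4% and 53.7% of all genes. The small TOM subunits Tomm6 (0.704-fold and 0.677-fold) and Tomm7 (0.775-fold and 0.825-fold) were lower in Scl_Ab and Vehicle. The genes most like Tomm40 were Cox7c and Ndufb11, of respiratory chain complexes IV and I, and Abcb8, a mitochondrial transporter (r = 0.887 to 0.891).

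Bcam, the basal cell adhesion molecule and a receptor for laminin, was the most abundant member and, next to Apoe, the one with the largest fall. Its values ran from 90.1 to 214 (median 156) in Scl_Ab, from 65.3 to 232 (median 149) in Vehicle and from 405 to 512 (median 453) in WT. No ApoE KO library reached the lowest WT library. The fold was 0.328 in Scl_Ab (0.257 to 0.418, adjusted p = 9.59e-09) and 0.330 in Vehicle (0.257 to 0.424, adjusted p = 1.82e-08), and Scl_Ab over Vehicle was 0.993 (0.772 to 1.28, adjusted p = 0.979).

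Contractile smooth muscle markers moved with Bcam. Of 15 markers, 14 were lower in each comparison with WT (all genes: 30.5% lower in Scl_Ab and 31% in Vehicle). Among them were Myh11 (0.398-fold in Scl_Ab and 0.415-fold in Vehicle), the smooth muscle myosin, and Myl9 (0.389-fold and 0.424-fold). The summed level of the 15 markers was 8000 to 18919 in Scl_Ab, 7133 to 22538 in Vehicle and 25908 to 30066 in WT, with no marker under 1 in all libraries of a group. Within groups Bcam followed the index of these markers. Pearson's r was 0.853 in Scl_Ab (permutation p = 0.00241), 0.923 in Vehicle (permutation p = 0.00240) and 0.862 in WT (permutation p = 0.00073), and rho was 0.770, 0.883 and 0.879 (permutation p = 0.0129, 0.00300 and 0.00163). The adjusted p-values of r were 0.0289, 0.0289 and 0.0131, and without the 2 libraries farthest from the median r was 0.568, 0.916 and 0.669. With the adipocyte index r of Bcam was -0.681, -0.804 and -0.356 in Scl_Ab, Vehicle and WT (adjusted permutation p = 0.113, 0.0350 and 0.510). With an index of the 20 macrophage markers it was -0.794, 0.270 and -0.558 (adjusted permutation p = 0.0367, 0.716 and 0.224). Within groups, over the 29 libraries, the genes most like Bcam were Mfge8 (r = 0.974), a glycoprotein of the arterial wall, Myl9 (0.966) and Tpm2 (0.966), a tropomyosin. Mfge8 itself was not called against WT (1.059-fold in Scl_Ab and 1.08-fold in Vehicle, adjusted p = 0.747 and 0.650).

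With the contractile index as a covariate, added after the data were seen, Bcam was 0.683-fold against WT in Scl_Ab (0.557 to 0.837, adjusted p = 0.00535) and 0.667-fold in Vehicle (0.546 to 0.815, adjusted p = 0.00230). Since the index ranges of ApoE KO and WT libraries do not overlap, that fit extends each group's line beyond its own libraries. Of 15 tested laminins and laminin receptors, 3 were higher and 6 lower in each comparison, shares near those of all genes (19.8% higher and 30.5% lower in Scl_Ab, 22.7% and 31% in Vehicle). Lama4, a laminin chain of vascular basement membrane, was 0.660-fold in Scl_Ab and 0.531-fold in Vehicle (adjusted p = 5.86e-07 and 5.34e-10), and it was the member of this list that differed between Scl_Ab and Vehicle (1.24-fold, adjusted p = 0.0227). Lamb2 was 0.717-fold and 0.666-fold, although with the contractile covariate its log2 difference was 0.12 in Scl_Ab and -0.01 in Vehicle, neither called (adjusted p = 0.433 and 0.931). Itga6, which encodes a laminin-binding integrin chain, was higher at 2.26-fold in Scl_Ab and 2.53-fold in Vehicle.

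Bcl3, an atypical inhibitor-family protein that binds the p50 and p52 subunits of NF-kappaB in the nucleus and can activate their targets, was the member that rose most. Its values ran from 2.88 to 11.7 (median 5.67) in Scl_Ab, from 3.23 to 11.6 (median 5.20) in Vehicle and from 0.907 to 1.98 (median 1.53) in WT. The lowest ApoE KO library exceeded the highest WT library. The fold was 2.85 in Scl_Ab (2.18 to 3.71, adjusted p = 1.35e-07) and 2.91 in Vehicle (2.22 to 3.83, adjusted p = 1.50e-07). On the deposited scale the Bcl3 means were 432% of the WT mean in Scl_Ab and 455% in Vehicle. The log2(value + 1) scale understates changes of low genes. With the contractile index as a covariate Bcl3 was 1.67-fold in Scl_Ab (1.16 to 2.41, adjusted p = 0.0328) and 1.75-fold in Vehicle (1.22 to 2.51, adjusted p = 0.0152). As for Bcam, that fit extends each group's line beyond its own libraries. The macrophage marker sums given above also separate ApoE KO from WT libraries, and their part in the Bcl3 difference was not tested. Within groups the correlation of Bcl3 with the macrophage index was weak and changed sign in each group when the 2 libraries farthest from the median were left out (r = -0.146 in Scl_Ab, 0.0564 in Vehicle and 0.111 in WT, permutation p = 0.694, 0.878 and 0.774; rho = 0.236, 0.167 and 0.0424, permutation p = 0.513, 0.678 and 0.918; r without those 2 libraries = 0.394, -0.314 and -0.100). With the adipocyte index r of Bcl3 was 0.353 in Scl_Ab, 0.701 in Vehicle and 0.734 in WT (adjusted permutation p = 0.529, 0.128 and 0.0367). Without the 2 libraries farthest from the median it was 0.401, 0.644 and 0.541. In WT rho was 0.673 (adjusted permutation p = 0.148). With the contractile index r was -0.554, -0.672 and -0.362 (adjusted permutation p = 0.233, 0.104 and 0.510). Within groups the gene most like Bcl3 was Socs3 (r = 0.837), the feedback inhibitor of cytokine signalling through STAT3, followed by Sbno2 (0.804) and Marc1 (0.772). Socs3 was itself 2.67-fold in Scl_Ab and 2.92-fold in Vehicle against WT (adjusted p = 5.60e-05 and 2.44e-05).

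Relb, the NF-kappaB subunit of the noncanonical pathway, ran from 6.499 to 13.05 (median 9.60) in Scl_Ab, from 5.40 to 10.2 (median 8.36) in Vehicle and from 6.78 to 9.15 (median 7.83) in WT. The groups overlapped, although 7 of 10 Scl_Ab libraries exceeded the highest WT library. Its fold against WT was 1.16 in Scl_Ab (1.02 to 1.33, adjusted p = 0.0493) and 0.997 in Vehicle (0.871 to 1.14, adjusted p = 0.976). The Scl_Ab call is marginal: it was lost in 14 of 20 fits that left out a library, and without Scl_Ab replicate 17, the highest, the adjusted p was 0.0966. Scl_Ab over Vehicle was 1.17-fold (1.02 to 1.34, adjusted p = 0.138), and the difference between the 2 folds against WT is this same contrast. Without Scl_Ab replicate 10, the lowest, it was called (adjusted p = 0.0469). Within groups the genes most like Relb were Fam20a (r = 0.762), Kcnd1 (0.759) and Pth1r (0.755), the parathyroid hormone receptor. In Scl_Ab each of these genes, like Relb, was highest in replicate 17 and lowest in replicate 10, and r without those libraries was not computed.

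Around these members, 10 of 17 tested NF-kappaB subunits and inhibitors were higher and 2 lower in Scl_Ab, and 8 were higher and 3 lower in Vehicle. Over all genes 19.8% were higher and 30.5% lower in Scl_Ab, and 22.7% and 31% in Vehicle. Rel, which encodes c-Rel, was 1.29-fold in Scl_Ab and 1.48-fold in Vehicle (adjusted p = 2.85e-06 and 2.03e-09), and Ikbkg, the scaffold of the IkappaB kinase complex, was 1.68-fold in each. Rela, which encodes the p65 subunit, was lower at 0.869-fold and 0.732-fold (adjusted p = 0.00838 and 1.34e-06). Scl_Ab and Vehicle differed in 4 of these 17 genes, where 7.44% of all genes did. Rela (1.19-fold, adjusted p = 0.0202) and Nfkb2, the partner of Relb, were higher in Scl_Ab, and Rel (0.867-fold, adjusted p = 0.0244) and Nfkbia, an inhibitor, were lower.

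Clptm1, a transmembrane protein reported to hold back GABA type A receptor subunits in the endoplasmic reticulum, was the flattest member. Its values ran from 16.4 to 23.3 (median 20.7) in Scl_Ab, from 18.3 to 23.5 (median 19.9) in Vehicle and from 19.2 to 22.5 (median 20.1) in WT, and the groups overlapped throughout. The fold against WT was 1.002 in Scl_Ab (0.931 to 1.08, adjusted p = 0.969) and 1.01 in Vehicle (0.935 to 1.09, adjusted p = 0.870). Both intervals are narrow and include a fold of 1. Within groups it was most like Aldh2 (r = 0.816), the mitochondrial aldehyde dehydrogenase, Prpf8 (0.808), a core spliceosome protein, and Bckdk (0.803), the kinase of branched-chain ketoacid dehydrogenase.

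Clasrp, a serine- and arginine-rich protein that interacts with CLK4, the splicing-factor kinase, ran from 9.08 to 27.7 (median 11.4) in Scl_Ab, from 8.25 to 12.8 (median 10.4) in Vehicle and from 13.03 to 20.6 (median 14.7) in WT. All Vehicle libraries lay below all WT libraries, while 8 of 10 Scl_Ab libraries did. The fold was 0.819 in Scl_Ab (0.680 to 0.987, adjusted p = 0.0684) and 0.689 in Vehicle (0.569 to 0.834, adjusted p = 0.00142). The Scl_Ab value turns on replicate 17: without it the log2 difference was -0.41 and called (adjusted p = 0.000568). Scl_Ab over Vehicle was 1.19-fold (0.982 to 1.44, adjusted p = 0.253). With the contractile index as a covariate the Vehicle call was lost (adjusted p = 0.0829) at a similar fold of 0.716 (0.526 to 0.975), the interval being wider. With the macrophage index r of Clasrp was -0.675, 0.287 and -0.764 in Scl_Ab, Vehicle and WT (adjusted permutation p = 0.0799, 0.658 and 0.0367). Without the 2 libraries farthest from the median r was -0.355, 0.598 and -0.722.

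Other splicing genes were also mostly lower. Of 19 SR-related splicing factors and CLK kinases, 14 were lower in Scl_Ab and 15 in Vehicle against WT, and none was higher. Of all genes 30.5% were lower and 19.8% higher in Scl_Ab, and 31% and 22.7% in Vehicle. Srsf4 was 0.722-fold in Scl_Ab and 0.667-fold in Vehicle (adjusted p = 4.72e-06 and 2.54e-07), Srrm1 0.738-fold and 0.742-fold, and Srsf1 0.796-fold and 0.763-fold. Within groups the genes most like Clasrp over the 29 libraries were Leng8 (r = 0.972), Snrnp70 (0.971), which encodes a U1 snRNP protein, and Mbd6 (0.961).

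Annotated genes overlap 4 members, and since the use of strand in counting is not given, reads of overlapping genes cannot be told apart. The overlapping genes had means under 0.2 in every group, except Gm26890 in Clasrp (0.359 in Scl_Ab, 0.254 in Vehicle and 0.153 in WT) and Gm45114 in Bcam (0.478, 0.314 and 1.41). These levels are small beside those of Clasrp and Bcam.

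None of the 8 members was called between Scl_Ab and Vehicle by limma, where 7.44% of all genes were (2.64% higher and 4.8% lower). The groups overlapped for all 8, as for all but 0.141% of genes. Relb had an unadjusted p under 0.05 in limma, and the Wilcoxon rank-sum test called 0 members after adjustment and 1 before it. The folds of Scl_Ab over Vehicle ran from 0.977 for Bcl3 to 1.28 for Apoc1, whose interval was the widest (0.586 to 2.78).

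The neighbourhood was then widened to all genes within 1 Mb of Apoe. Of 125 annotated genes 42 were tested, and 34 of these are not among the 8 members. Of the 34, 19 were lower and 4 higher in Scl_Ab (55.9% lower, against 30.5% of all genes), and 20 were lower and 5 higher in Vehicle (58.8% lower, against 31%). Over all genes the share of calls that were higher was 39.4% in Scl_Ab and 42.2% in Vehicle, and with TMM scaling it was 53.1% and 51.3%.

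The genes nearest to Apoe did not move in 1 direction. Of 9 other tested genes within 0.25 Mb, 4 were higher and 3 lower in both comparisons. The shares over all tested genes were 19.8% higher and 30.5% lower in Scl_Ab, and 22.7% and 31% in Vehicle. Nectin2, a cell adhesion protein of the nectin family that lies between Tomm40 and Bcam, averaged 9.21 in Scl_Ab, 8.82 in Vehicle and 5.00 in WT. It was 1.69-fold in Scl_Ab (adjusted p = 8.12e-05) and 1.56-fold in Vehicle (adjusted p = 0.000649), with no overlap with WT in either. Bloc1s3 and Trappc6a, which act in vesicle trafficking, and Gm16184 were higher by 1.13-fold to 1.37-fold. Ppp1r37, a regulator of protein phosphatase 1, was 0.680-fold and 0.639-fold in Scl_Ab and Vehicle (adjusted p = 2.99e-11 and 2.49e-12), and Gemin7, of the SMN complex that assembles snRNPs, was 0.698-fold and 0.728-fold. Gm45114, the gene inside Bcam, was also lower (0.614-fold and 0.556-fold). Pvr, a nectin-like receptor, was higher in Vehicle (1.253-fold, adjusted p = 0.0124) and at 1.17-fold in Scl_Ab (adjusted p = 0.0663), and Gm44660 was not called in either.

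**Figure D3:**
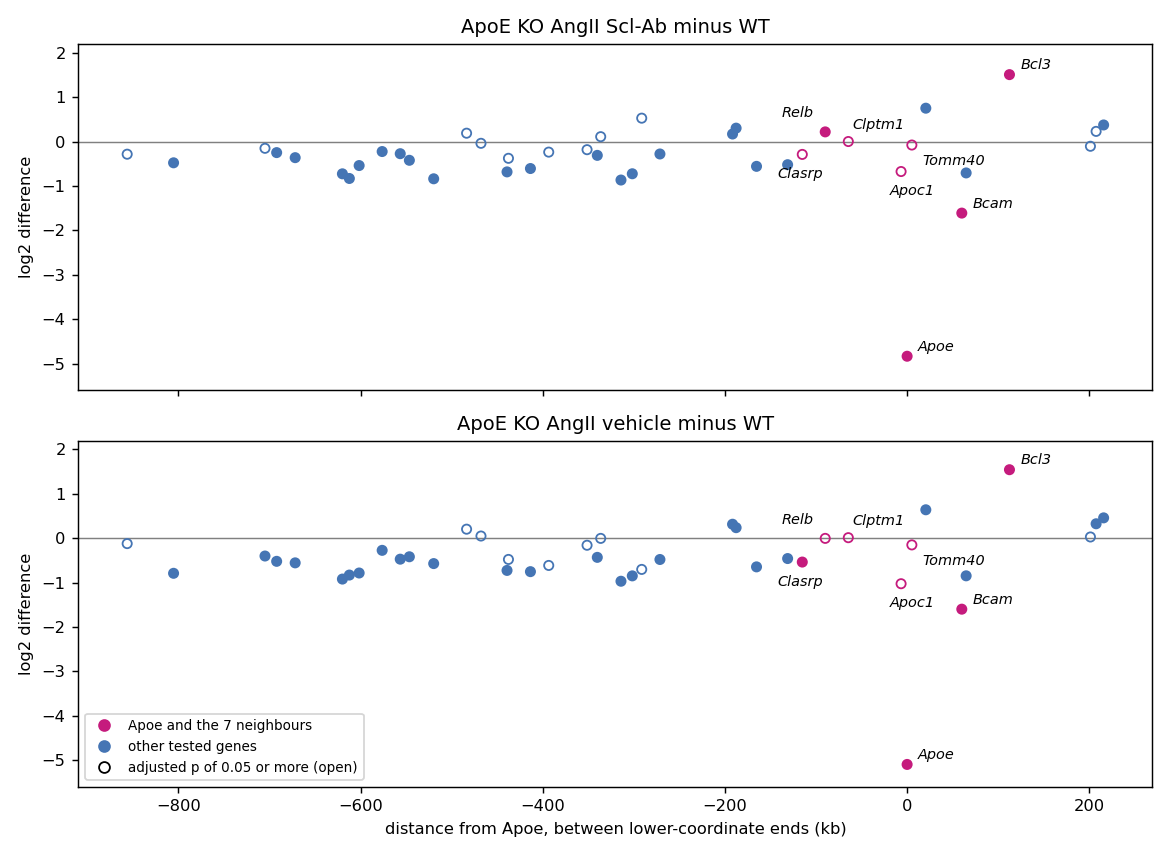
Log2 difference from WT (vertical axis) of each of the 42 tested genes within 1 Mb, against its distance from Apoe in kb (horizontal axis), for Scl_Ab (top) and Vehicle (bottom). Filled points are called (adjusted p under 0.05) and the 8 members are named. Apoe stands alone at about -5, Bcl3 (1.51 and 1.54) and Bcam (-1.61 and -1.60) are the next largest, and most other filled points to the left lie below 0.

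Between 0.25 and 1 Mb all 25 tested genes lie towards lower coordinates, and 16 were lower in Scl_Ab and 17 in Vehicle, with none higher. Among all tested genes 30.5% were lower and 19.8% higher in Scl_Ab, and 31% and 22.7% in Vehicle. Ercc2, a helicase of nucleotide excision repair, was 0.549-fold in Scl_Ab and 0.511-fold in Vehicle (adjusted p = 9.15e-06 and 2.60e-06). Dmwd was 0.605-fold and 0.528-fold, and Vasp, an actin regulator, 0.624-fold and 0.605-fold. Dmpk, the kinase whose human gene carries the repeat of myotonic dystrophy, averaged 286 in Scl_Ab, 281 in Vehicle and 479 in WT, at 0.563-fold and 0.562-fold. With the contractile covariate, a fit that extends each group's line beyond its own libraries, the Dmpk log2 difference was 0.19 in Scl_Ab and 0.15 in Vehicle (adjusted p = 0.456 and 0.539). Under that covariate the number of called genes within 1 Mb fell to 13 in Scl_Ab and 17 in Vehicle, against 27 and 29, and over all genes the called share was then 26.6% and 34.9%. Scl_Ab and Vehicle differed in 3 of the 42 genes (7.14%, close to the 7.44% of all genes). These were Ccdc61, Irf2bp1 and Sympk, all higher in Scl_Ab (1.14-fold to 1.24-fold, adjusted p from 0.0155 to 0.0320). After trends over GC content and length were removed from each library, none of the 42 was called higher in Scl_Ab and 1 was called lower.

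The share of genes called lower was higher near Apoe than far from it along chromosome 7, a description with no test of the bins. Without the members, it was 55.9% in Scl_Ab and 58.8% in Vehicle within 1 Mb, 56.0% and 58.0% at 1 to 5 Mb, 46.8% and 53.2% at 5 to 10 Mb, 35.6% and 38.4% at 10 to 20 Mb, and 28.96% and 33.0% beyond. These bins hold 34, 50, 111, 146 and 670 tested genes. Base composition moved with distance: median exon GC content was 56.9%, 55.2%, 54.9%, 53.6% and 51.5% in these bins and 49.7% over all tested genes. The rank correlation with GC content ran from -0.119 to 0.251 in Scl_Ab libraries and from 0.0356 to 0.220 in WT libraries. In Vehicle libraries it ran from -0.341 to 0.239, and 7 of 9 were below 0. It is read here only as a difference between libraries, not as the GC trend of a single library's values. After trends over GC content and length were removed from each library, the shares of lower genes were 52.9%, 46.0%, 38.7%, 24.7% and 22.4% in Scl_Ab (24.3% of all genes) and 55.9%, 42.0%, 36.9%, 28.8% and 26.9% in Vehicle (25.6% of all genes). By whole chromosome, 34.1% of tested genes on chromosome 7 were lower in Scl_Ab and 38.1% in Vehicle, and the other chromosomes ranged from 25.95 to 37.7% in Scl_Ab and from 21.8 to 38.5% in Vehicle.

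**Figure D4:**
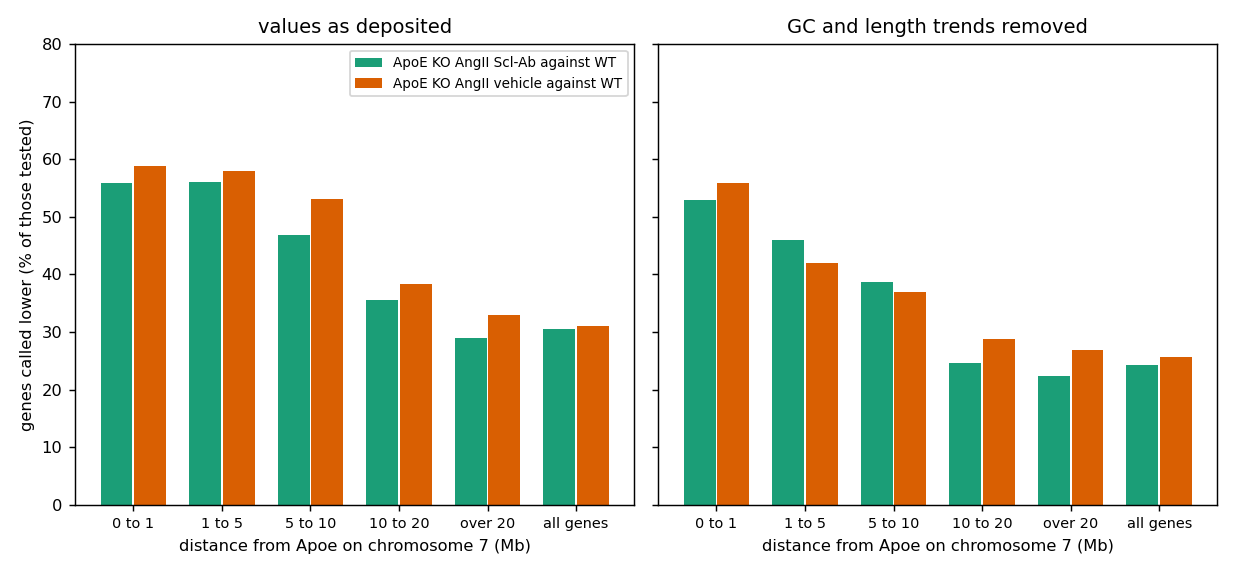
Percentage of tested genes called lower than WT (vertical axis, from 0) by distance from Apoe on chromosome 7 in Mb (horizontal axis), without the 8 members, in Scl_Ab and Vehicle, with all tested genes at the right. Left, values as deposited; right, after per-library trends over GC content and length were removed. Within 1 Mb the bars stand at 55.9% and 58.8% on the left and 52.9% and 55.9% on the right, and beyond 20 Mb they are close to those of all genes.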

How the data were processed

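Per the labels' protocols, RNA of at least 80 ng and RIN of at least 7 of the aortic arch was made into 29 TruSeq stranded mRNA libraries. The authors deposited 1 table per library with 1 value per gene symbol under the header FPKQ. The header is not explained; the deposited values behave as FPKM, which is scaled by gene length, brought to a common upper quantile (85th percentile 6.99 to 7.30 in every library). The submitters' processing notes name GRCm38 and DESeq2 1.10.1, with no role for either. Depth is unknown: whole steps were met, to within 0.05, by only 75.8 to 78.4% of each library's low values, so counts were not recovered, and fragment numbers are approximate.

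The test was limma 3.58.1 (R 4.3.3) on log2(value + 1), in 1 fit over the 3 groups, for the 13510 genes reaching 1 in 9 or more libraries, with Benjamini-Hochberg adjustment over all of them. The fold understates changes of low genes. Intervals are at 95%. Positions, overlaps, GC content and length come from GENCODE M21 (45889 symbols matched). Marker indices are means of log2 values, and correlations used 100000 permutations (scipy 1.17.1). Before averaging, libraries of a group were compared, and none duplicated another.

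The members and gene lists were chosen with earlier results of these data known, and the covariate fits and their leave-one-out fits were added after the data were seen. The text names the members, their 3 most alike genes, genes within 0.25 Mb, genes within 1 Mb called in both comparisons with WT, and, per list, the 3 called genes with the smallest p in Vehicle against WT, leaving some out for length. Apoc2, Apoc4, Vldlr, Clu, Apod, Nfkb2, Nfkbia and the genes overlapping members were named after their values were seen, to complete counts.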

Additional observations from a re-analysis of the deposited data

Results flagged for a closer look

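Clasrp in Scl_Ab replicate 17 was 27.7, and the next highest Scl_Ab library was 15.2. This 1 library stood far from the others in 1 of 24 sets of values examined, and chance gives about 1 in 20. The same library was the highest of its group in Apoe, Bcl3 and Relb and the lowest in Clptm1.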

How the results depend on the processing

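Apoe, Bcam and Bcl3 kept their direction and their call against WT in every alternative run, although Bcl3 was 1.67-fold and 1.75-fold in Scl_Ab and Vehicle with the contractile index as a covariate, against 2.85-fold and 2.91-fold without it. Over 9 other settings without a covariate or a library left out, the log2 difference of Bcl3 ran from 1.34 to 1.99 in Scl_Ab. In Vehicle it ran from 1.54 to 2.02. The number of members called against WT was 3 to 4 in Scl_Ab and 4 to 6 in Vehicle when each library was left out in turn, and 0 to 1 between Scl_Ab and Vehicle, and genes called within 1 Mb numbered 25 to 28 and 28 to 31. With the contractile index as a covariate, chosen after seeing the data, genes called within 1 Mb numbered 13 in Scl_Ab and 17 in Vehicle. Under that covariate the log2 difference from WT turned its sign for Cd3eap (0.11), Cfd (-0.29), Dmpk (0.19), Lamb2 (0.12), Rtn2 (0.33) and S100b (-0.0924) in Scl_Ab, and for Cfd (-0.63), Dmpk (0.15), Eml2 (0.0407), Rtn2 (0.14), Ryr2 (0.0783) and S100b (-0.0466) in Vehicle; the cause was not tested. The Relb call in Scl_Ab was also lost with a pseudocount of 0.1 (adjusted p = 0.0520), no filter (0.0935), array weights (0.175), the adipocyte covariate (0.0619, at a fold of 1.17 against 1.16 without it) and the contractile covariate (0.510, at a fold of 1.11). Clasrp in Scl_Ab was called by the Wilcoxon test (0.0164) and array weights (0.000645), and array weights also called Tomm40 (0.00362) and Apoc1 (0.00444) lower in Vehicle. Between Scl_Ab and Vehicle, 35.4% of the 1005 calls over all genes were higher, against 49.4% of 1066 with TMM scaling and 65.0% of 369 with equal totals. No paired analysis was possible because the groups share no replicate numbers. Depth limits Apoc2 and Apoc4, which lay under the filter.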
